A study of Mus musculus with 2 samples.

Results

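The genes described here encode the subunits of the mitochondrial respiratory chain and of the ATP synthase. They were chosen by symbol: names starting with mt-Nd, mt-Co, mt-Atp, mt-Cytb, Ndufa, Ndufb, Ndufc, Ndufs, Ndufv, Uqcr, Cox4 to Cox8 or Atp5 were taken, and the Ndufaf assembly factors were left out. The rule found 95 of the 32285 genes counted, among them Ndufb1-ps, which is annotated as a non-coding RNA. Of these, 13 are encoded by mitochondrial DNA and 82 by nuclear chromosomes. Complex I, the NADH dehydrogenase, has 7 mitochondrial-encoded and 39 nuclear-encoded members in this set. For complex III, the cytochrome bc1 complex, the numbers are 1 and 8. Cytochrome c oxidase, complex IV, has 3 and 18, and complex V, the ATP synthase, has 2 and 17.

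The data are 2 single-cell RNA libraries of cells sorted for CD45, the surface protein that marks blood-derived cells, from tumours grown under the skin of wild type BALB/c mice from MFC cells, a mouse forestomach carcinoma line. One library came from mice given PBS and served as the control. The other came from mice given thonzonium bromide, a quaternary ammonium surfactant, at 50 mg/kg every other day from day 6, and the mice were killed on day 10. Age, sex and the number of mice in each library were not given in the sources used here, and the treatment text is the same for both libraries, so the group of each was taken from its treatment label. With 1 library per group no difference could be set against the spread between animals. Every interval below covers counting error only, and treatment, mouse and library cannot be told apart.

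Complexes I, III and IV pass electrons from NADH to oxygen and pump protons across the inner mitochondrial membrane, and complex V uses the returning protons to make ATP. Each of these complexes is built from subunits made inside the mitochondrion and subunits made in the cytosol and imported, so 2 genomes must supply the parts. Several cytochrome oxidase subunits also exist as a widely used form and a second form restricted to certain tissues, such as heart and skeletal muscle, lung or testis.

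The mitochondrial genes lie next to each other and are transcribed as long precursors that are then cut. In the GENCODE vM21 annotation of the mm10 genome, mt-Atp8 (chromosome M, 7766 to 7969) shares its last 43 bases with the start of mt-Atp6 (7927 to 8607), and mt-Nd4l (9877 to 10173) shares 7 with mt-Nd4 (10167 to 11544). Their neighbour mt-Nd3 (9459 to 9806) overlaps no other subunit gene. Further overlaps, of 1 base between mt-Atp6 and mt-Co3 and of 14 between mt-Nd5 and mt-Nd6, are not printed. The last 90 bases of mt-Atp8, mt-Nd4l and mt-Nd3 are shown, 5′ to 3′. They were picked because mt-Nd3 had a higher share of the mitochondrial UMIs in the treated library below, and mt-Atp8 and mt-Nd4l a lower one. Whether overlap and share are linked was not tested. Capitals mark the bases shared with the next gene.
mt-Atp8: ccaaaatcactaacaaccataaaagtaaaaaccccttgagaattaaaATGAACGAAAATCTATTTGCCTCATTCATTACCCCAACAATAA
mt-Nd4l: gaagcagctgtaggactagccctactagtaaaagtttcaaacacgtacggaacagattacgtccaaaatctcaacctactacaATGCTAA
mt-Nd3: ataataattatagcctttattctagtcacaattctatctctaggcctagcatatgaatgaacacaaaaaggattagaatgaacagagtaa

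Nuclear subunit genes sit on 19 different chromosomes and are known targets of the factors NRF1, GABP (an ETS factor) and YY1. Of the 82 nuclear members, 67 matched a RefSeq promoter (GRCm38.p6, 250 bases before to 50 after the start). The NRF1 motif, given in capitals in the Cox6a1 promoter, was searched on both strands as were the others, and was present in 5 of the 67 promoters, or 7.46%, against 0.977% of 27025 promoters. The ETS motif CCGGAAG was in 14 (20.9%, against 9.12%) and the YY1 motif AAGATGGC in 9 (13.4%, against 2.88%). A match describes the letters in this window and does not show binding. Shown here are the promoter of Cox6a1, the widely used form of a cytochrome oxidase subunit whose restricted form Cox6a2 is described below, and that of Atp5o, the ATP synthase stalk subunit that was higher in the treated library in all of the 4 largest gates. Cox6a1 lies on the minus strand at chr5:115348909-115349208 and carries the NRF1 motif and, on the reverse strand, the ETS motif, in capitals in that order. Atp5o lies on the minus strand at chr16:91931581-91931880, where none of the 3 motifs was found.
Cox6a1: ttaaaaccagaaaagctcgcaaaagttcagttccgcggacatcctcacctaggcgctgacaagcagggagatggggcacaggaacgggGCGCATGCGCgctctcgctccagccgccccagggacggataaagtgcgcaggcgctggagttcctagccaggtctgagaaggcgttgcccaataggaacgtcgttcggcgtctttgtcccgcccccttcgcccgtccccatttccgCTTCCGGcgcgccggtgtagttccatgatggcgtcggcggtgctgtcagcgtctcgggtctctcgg
Atp5o: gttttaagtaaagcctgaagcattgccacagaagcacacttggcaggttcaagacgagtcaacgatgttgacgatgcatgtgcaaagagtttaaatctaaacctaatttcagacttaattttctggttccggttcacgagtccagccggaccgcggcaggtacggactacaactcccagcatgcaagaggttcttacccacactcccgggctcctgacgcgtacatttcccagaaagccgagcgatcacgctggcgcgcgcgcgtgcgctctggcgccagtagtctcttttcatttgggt

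After filtering, 6419 control and 5833 treated barcodes were kept, with a median of 4300 and 7259 UMIs (unique molecular identifiers, each a counted RNA molecule). The members took 5.61% of control and 5.83% of treated UMIs. Cells were gated by 8 marker genes per cell type, and a barcode entered a gate when it had at least 3 of its markers and at least 2 more than of any other list. All 8 markers of the T, NK, monocyte/macrophage, B, plasmacytoid dendritic and neutrophil lists had UMIs in their own gate in both libraries. The same markers set entry to the gates, so this does not test the gate names. Markers of other lists were counted too. Plasmacytoid markers summed to 1998 control and 2249 treated UMIs per 1000000 in the B gate, and T markers to 900 and 1013 in the NK gate. Conventional dendritic markers summed to 529 and 536 in the plasmacytoid gate. The gates held 1439 control and 1195 treated T cells, 1213 and 1121 NK cells, 765 and 1647 monocytes and macrophages, 229 and 503 B cells, 112 and 32 plasmacytoid dendritic cells and 90 and 172 neutrophils. In 2194 control and 1075 treated barcodes no list led, and 9 kept barcodes carried the same sequence in both libraries. Control gates held 6 barcodes of more than 50000 UMIs and treated gates of these types held none. In 1 of them the CD45 gene Ptprc reached 1843 UMIs per 1000000, and in the other 5 it was low, so calls that are lost without these barcodes are given with and without them. Summed CPM of 8 tumour and stromal markers was higher in control than treated T cells (78.3 and 7.87), monocytes and macrophages (98.9 and 10.6) and B cells (190 and 17.0) and near 0 in NK cells (4.86 and 2.75). Without the deep barcode of each gate the control values were 8.27 in T cells, 20.04 in monocytes and macrophages and 14.2 in B cells. Of all kept UMIs, 8.64% under PBS and 1.16% under treatment were haemoglobin. Within gates haemoglobin was 0.914% of control and 0.208% of treated T cell UMIs, 0.424% and 0.0222% in NK cells and 0.428% and 1.24% in B cells. Ratios over UMIs outside mitochondrial and haemoglobin genes are given in the closing section. Haemoglobin was not left out alone.

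Levels are UMIs per 1000000 UMIs of a gate (CPM), and the ratio is treated over control with its 95% interval. The 13 mitochondrial genes summed to about the same level in T cells and in monocytes and macrophages of both libraries, were lower in treated NK cells and higher in treated B cells. The 82 nuclear genes were higher in treated T and NK cells. In T cells the mitochondrial sum was 36602 CPM in the PBS library and 37073 after treatment, a ratio of 1.01 (1.01 to 1.02). This small difference turned below 1 under 4 of the 11 other settings tried. NK cells gave 40163 and 36194 CPM, a ratio of 0.901 (0.898 to 0.905). Monocytes and macrophages gave 38558 and 39937 CPM, a ratio of 1.04 (1.03 to 1.04) that also turned below 1 under 3 settings. In B cells the sum was 45730 and 58095 CPM, the highest of the 4 gates in both libraries, with a ratio of 1.27 (1.26 to 1.28).

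The nuclear sum was 17732 CPM in control and 19430 in treated T cells, a ratio of 1.10 (1.09 to 1.10). In NK cells it was 19465 and 20721, a ratio of 1.06 (1.06 to 1.07), and in monocytes and macrophages 17484 and 17722, a ratio of 1.01 (1.01 to 1.02). B cells had the lowest nuclear sum of these gates, 13570 and 13268 CPM, and their ratio of 0.978 (0.958 to 0.998) became 1.09 without the 1 control barcode of more than 50000 UMIs. Mitochondrial UMIs therefore outnumbered nuclear ones by 2.06 to 1 in control and 1.91 to 1 in treated T cells, and by 2.06 and 1.75 to 1 in NK cells. The balance was 2.21 and 2.25 to 1 in monocytes and macrophages and 3.37 and 4.38 to 1 in B cells. Genes for cytosolic ribosomal proteins, another large set of highly expressed housekeeping genes, had a summed CPM ratio of 1.10 in T, 1.03 in NK, 0.979 in monocyte/macrophage and 1.14 in B cells. Their part in the nuclear differences was not tested.

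**Figure D1:**
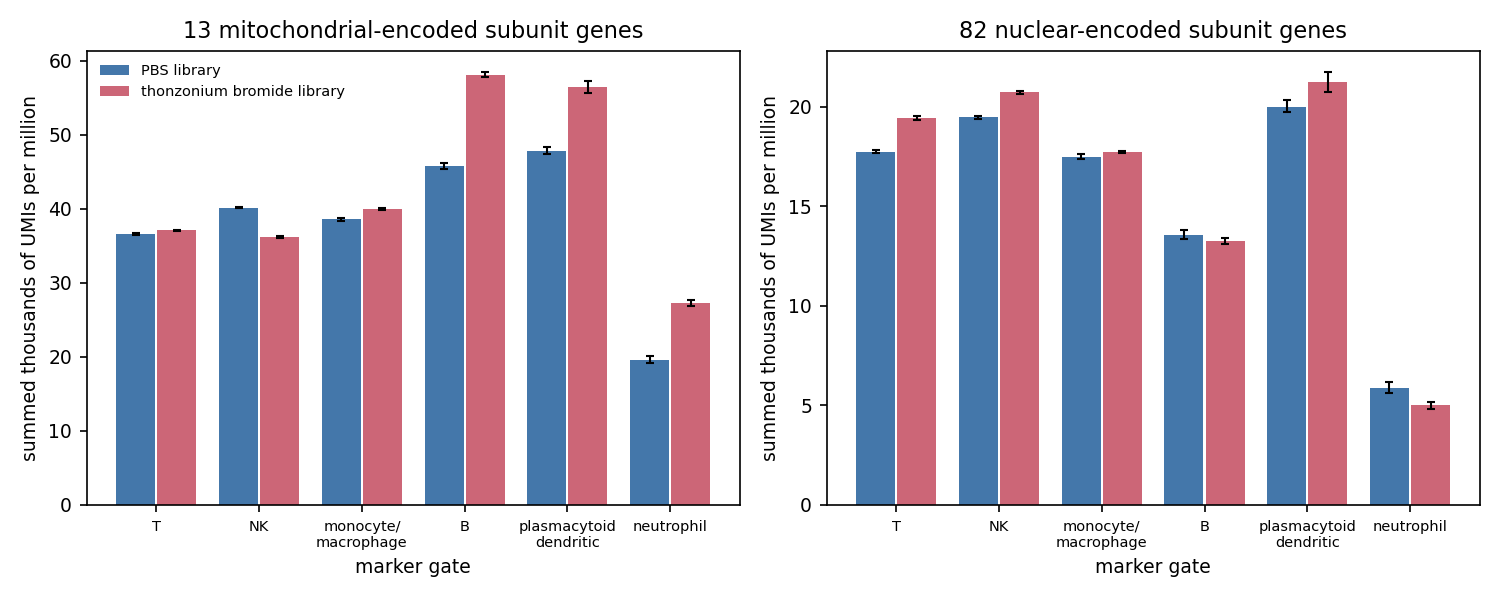
Summed level of the 13 mitochondrial-encoded (left) and 82 nuclear-encoded (right) subunit genes in 6 marker gates, in units of 1000 CPM on the y axis, for the PBS and the thonzonium bromide library. Bars are the value of 1 library and error bars the 95% Poisson interval; the mitochondrial sum of B cells stands at 45730 and 58095 CPM and the nuclear sum of neutrophils at 5891 and 5008 CPM, the lowest of the gates drawn.

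Neutrophils are short-lived granulocytes known to rely mostly on glycolysis. Their nuclear subunit sum was 5891 CPM in the PBS library and 5008 CPM after treatment, below every other gate drawn. Cytosolic ribosomal protein genes were also lowest in neutrophils, at 51845 and 28801 CPM. A link of these levels to glycolysis was not tested. The mitochondrial sum of neutrophils was 19632 CPM in the PBS library and 27294 after treatment, a ratio of 1.39 (1.35 to 1.43). The median neutrophil went the other way, with 1.17% mitochondrial UMIs in the PBS library and 0.812% after treatment. Cells with over 10% mitochondrial UMIs made up 11 of 172 treated and 1 of 90 control neutrophils. Plasmacytoid dendritic cells, the interferon-producing dendritic type, had 47833 and 56390 CPM of mitochondrial and 20005 and 21212 CPM of nuclear subunits, ratios of 1.18 (1.16 to 1.20) and 1.06 (1.03 to 1.09). The treated gate held only 32 of these cells. The conventional dendritic gate held 30 and 39 cells, under the minimum of 50 set for levels, and 2 barcodes of more than 50000 UMIs carried 57.3% of its control UMIs. Its mitochondrial ratio of 0.808 became 2.16 without them and its nuclear ratio of 0.832 became 1.12, so no member of this gate is named.

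The lower mitochondrial sum of treated NK cells was found in cells of low and middle depth. Among NK cells with 2000 to 5000 UMIs the mitochondrial genes stood at 59281 CPM in 268 control and 37954 CPM in 169 treated cells. With 5000 to 10000 UMIs the values were 49001 CPM in 381 control and 36946 CPM in 388 treated cells. Above 10000 UMIs they were 35044 CPM in 516 control and 35815 CPM in 557 treated cells, where the control no longer stood higher. Cells with over 10% mitochondrial UMIs made up 11.7% of control and 2.23% of treated NK cells, and without them the ratio of the sums was 1.00. The median cell was close in both libraries, with 3.47% and 3.30% mitochondrial UMIs. In T cells the class of 2000 to 5000 UMIs had 33378 and 36310 CPM and that above 10000 had 37719 and 37663 CPM, and the share of cells over 10% was 4.38% and 1.67%. In monocytes and macrophages, where the sums over all cells were close, the treated library was higher in each class above 2000 UMIs: 64475 and 73678 CPM, then 39436 and 44559, then 30888 and 34866. More of the treated cells lay in the deepest class, 726 of 1647 against 201 of 765, and that class had the lowest mitochondrial level in both libraries. In B cells the treated sum was higher in all 4 depth classes, of which the shallowest and the deepest held only 13 and 3 control cells. The class of 2000 to 5000 UMIs gave 43699 CPM in 186 control and 57905 CPM in 390 treated cells.

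**Figure D2:**
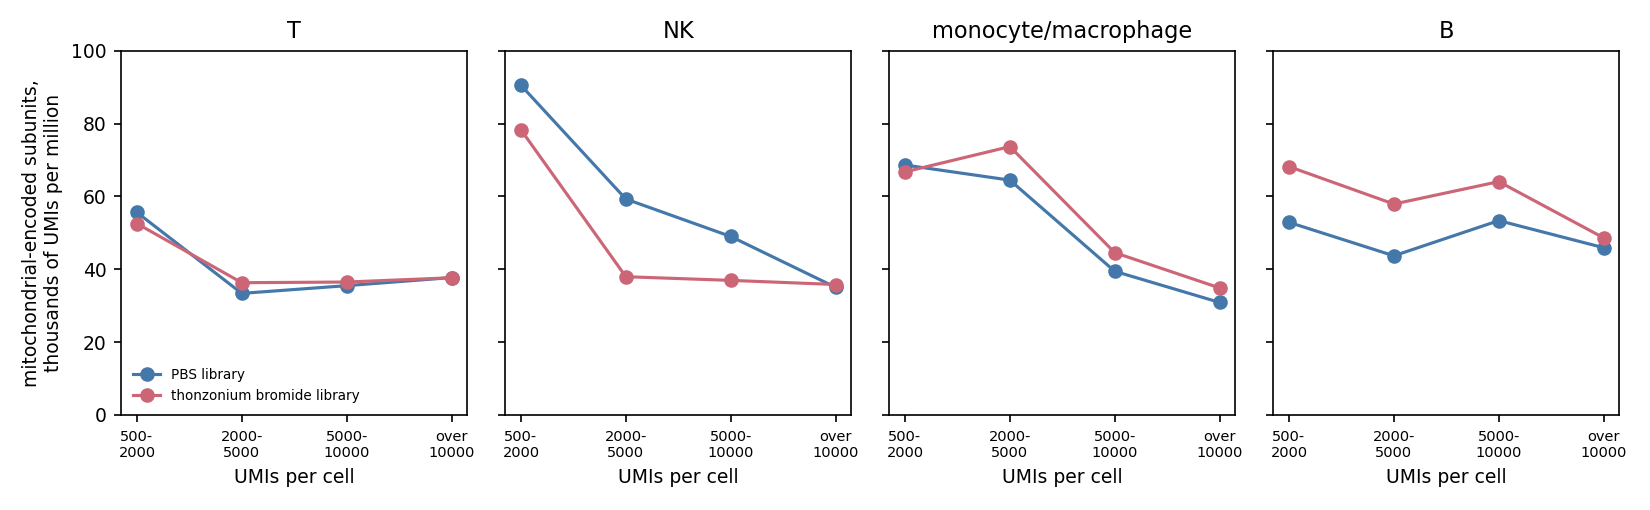
Summed level of the 13 mitochondrial-encoded genes (y axis, in units of 1000 CPM) in 4 classes of UMIs per cell (x axis) for T, NK, monocyte/macrophage and B cells of the PBS and the thonzonium bromide library; each point is the sum over the cells of 1 class and library. In NK cells the libraries are apart at 5000 to 10000 UMIs (49001 and 36946 CPM) and close above 10000 (35044 and 35815 CPM), while B cells of the treated library are higher in every class.

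Nuclear subunits in T cells were higher in the treated library in each class above 2000 UMIs, at 14606 and 16326 CPM with 2000 to 5000, 16633 and 18483 with 5000 to 10000, and 20454 and 21286 above that. Only the class of 500 to 2000 UMIs, with 225 control and 33 treated cells, went the other way, at 14079 and 12996 CPM. T cells with at least 2 of 6 cell cycle markers had 20762 CPM in the PBS library and 22911 CPM after treatment, against 16712 and 18495 CPM in the other T cells. The cycling cells were also deeper, with medians of 11186 and 13961.5 UMIs against 4661 and 6299, and the part of depth in this gap was not tested. The treated over control ratio was 1.10 in cycling and 1.11 in other T cells. Among monocytes and macrophages, those with complement genes had a lower treated mitochondrial sum (33948 and 32094 CPM), and those with classical monocyte genes a higher one (40203 and 43087 CPM). Treated cells of both subsets were deeper, with medians of 6345.5 and 10183 UMIs in the first and 6686 and 9257 in the second. The part of depth in these differences was not tested.

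Gene by gene, a member is counted as past the fold when it had at least 200 UMIs over both libraries, was at least 25% higher or at least 20% lower in the treated library, and had an interval off 1. Of the 82 nuclear members, 74 reached 200 UMIs in T, in NK and in monocyte/macrophage cells, and 66 did in B cells. The same 8 members, all restricted isoforms, failed in the 3 larger gates. In T cells 71 of the 74 had a ratio above 1, with a median log2 ratio of 0.11 against -0.05 over all 7590 genes that reached 200 UMIs. In NK cells 63 of 74 were above 1 (median 0.09, against -0.01 over 8172 genes). In monocytes and macrophages 39 were above and 35 below 1 (median 0.01, against -0.01 over 7299 genes). In B cells 28 of 66 were above 1 (median -0.02, against -0.11 over 2217 genes), and 48 of 65 without the deep control barcode (median 0.11).

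In T cells 3 members were past the fold upward, mt-Nd3, Atp5o and Ndufa3, and 1 downward, mt-Nd6. Over all genes tested in that gate 3.15% were past it upward and 10.6% downward. In NK cells none was past it upward, against 3.95% of all genes, and 4 were downward, against 5.18%. These 4 were mt-Atp8, mt-Nd4l, mt-Nd5 and mt-Nd6. Monocytes and macrophages had 1 upward, mt-Nd3, against 6.8%, and 4 downward, mt-Atp8, mt-Nd6, Ndufa5 and Ndufa12, against 9.47%. Without the deep control barcode of that gate Ndufa12 was no longer past the fold (ratio 0.844), mt-Nd4l was (0.795), and the count stayed at 4 (against 8.12%). In B cells 9 were upward, against 7.98%, and 7 downward, against 24.3%. Of the 9, 6 were mitochondrial, mt-Co1, mt-Co2, mt-Co3, mt-Atp6, mt-Cytb and mt-Nd3, and the nuclear ones were Atp5o, Cox7a2l and Ndufs7. The 7 downward were all nuclear: Uqcrq, Atp5g1, Uqcr10, Ndufa13, Ndufab1, Uqcrb and Ndufb8. Without the deep control barcode none of these 7 was past the fold, and mt-Atp8 was the only member downward (against 22.0% of genes). Upward were 5 mitochondrial and 4 nuclear members (against 5.43%), and mt-Cytb was no longer past the fold (ratio 1.23, 1.19 to 1.28).

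**Figure D3:**
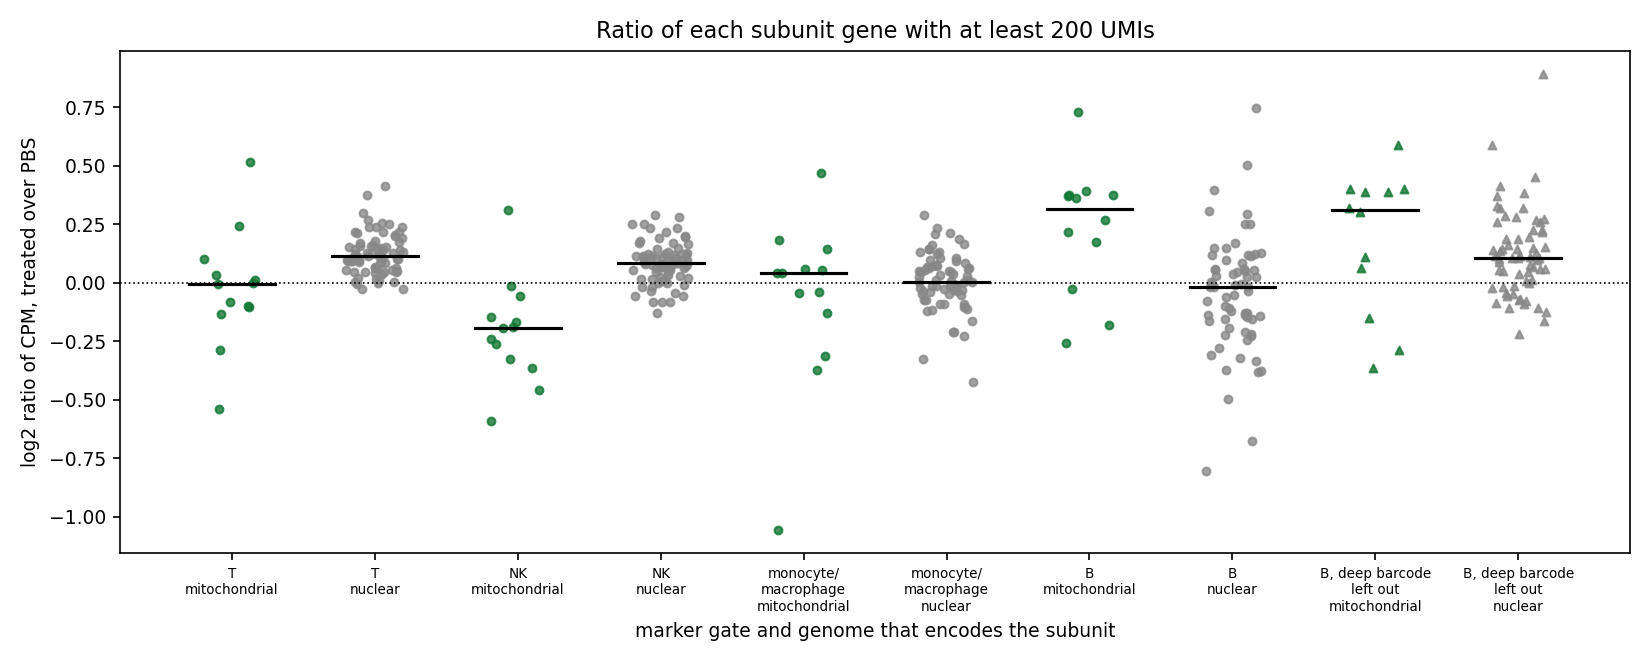
Treated over control ratio of every member with at least 200 UMIs (y axis, log2 of the CPM ratio) in 4 marker gates, mitochondrial-encoded members in green and nuclear-encoded in grey; black lines are medians, and triangles give the B gate without 1 control barcode of more than 50000 UMIs. The nuclear median is 0.11 in T cells, 0.09 in NK cells and 0.01 in monocytes and macrophages, and in B cells it is -0.02 with and 0.11 without that barcode.

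Within the mitochondrial genome the members did not move as a block. The complex I gene mt-Nd3 stood out upward in each gate. It was 418 CPM in control and 598 CPM in treated T cells, a ratio of 1.43 (1.37 to 1.49). The ratio was 1.24 (1.20 to 1.28) in NK cells, from 515 to 640 CPM, and 1.39 (1.32 to 1.45) in monocytes and macrophages, from 401 to 556 CPM. In B cells mt-Nd3 was 511 and 847 CPM, in plasmacytoid dendritic cells 569 and 856, and in neutrophils 163 and 410. As a share of all mitochondrial subunit UMIs, which sets aside how much mitochondrial RNA a cell has, mt-Nd3 was 1.14% in control and 1.61% in treated T cells and 1.28% and 1.77% in NK cells. Over the 6 gates its share ratio ran from 1.28 to 1.81. Barcodes in no gate gave 0.952% and 1.38%. Over all barcodes up to 50000 UMIs outside the plasmacytoid gate the mt-Nd3 share was 1.16% and 1.54%, so the difference was also present without the very deep barcodes. All gates of a library share the same preparation and sequencing, so the gates are not independent repeats.

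Other mitochondrial members were lower in share. The complex V gene mt-Atp8 held 0.328% of mitochondrial UMIs in control and 0.265% in treated T cells. Its share ratio lay between 0.659 and 0.809 in the 6 gates, with an interval below 1 in 4 of them. For mt-Nd4l, a complex I gene, the range was 0.695 to 0.919, with an interval below 1 in 4 gates. For mt-Nd5, another, it was 0.774 to 0.958, with an interval below 1 in 5 gates. Both mt-Atp8 and mt-Nd4l end inside the next reading frame, as the sequences above show, and are carried on the same RNA as that neighbour. The neighbours had ratios nearer to 1: mt-Atp6 had share ratios of 0.933 to 1.02 and mt-Nd4 of 0.888 to 1.15. The only subunit gene on the other strand, mt-Nd6, was at 49.1 CPM in control and 33.7 CPM in treated T cells, 49.7 and 33.0 in NK cells and 57.1 and 27.5 in monocytes and macrophages. In B cells it was 51.2 and 47.9 CPM (ratio 0.935, 0.665 to 1.33), and too few UMIs were counted there to separate the libraries. The cytochrome oxidase core gene mt-Co3 was slightly higher in share, with ratios of 1.01 to 1.11 and an interval above 1 in 5 gates. For mt-Co1 the ratio lay between 0.923 and 1.02. The complex I gene mt-Nd1 had share ratios of 1.17 (1.15 to 1.20) in T, 1.10 (1.08 to 1.12) in NK and 1.10 (1.07 to 1.12) in monocyte/macrophage cells, and of 0.947 (0.905 to 0.992) in B cells. For mt-Nd2, also of complex I, they ran from 0.903 to 0.995. Capture at 3' ends differs between transcripts, so rankings and ratios of UMIs between genes in this report are as counted, without a correction for it.

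**Figure D4:**
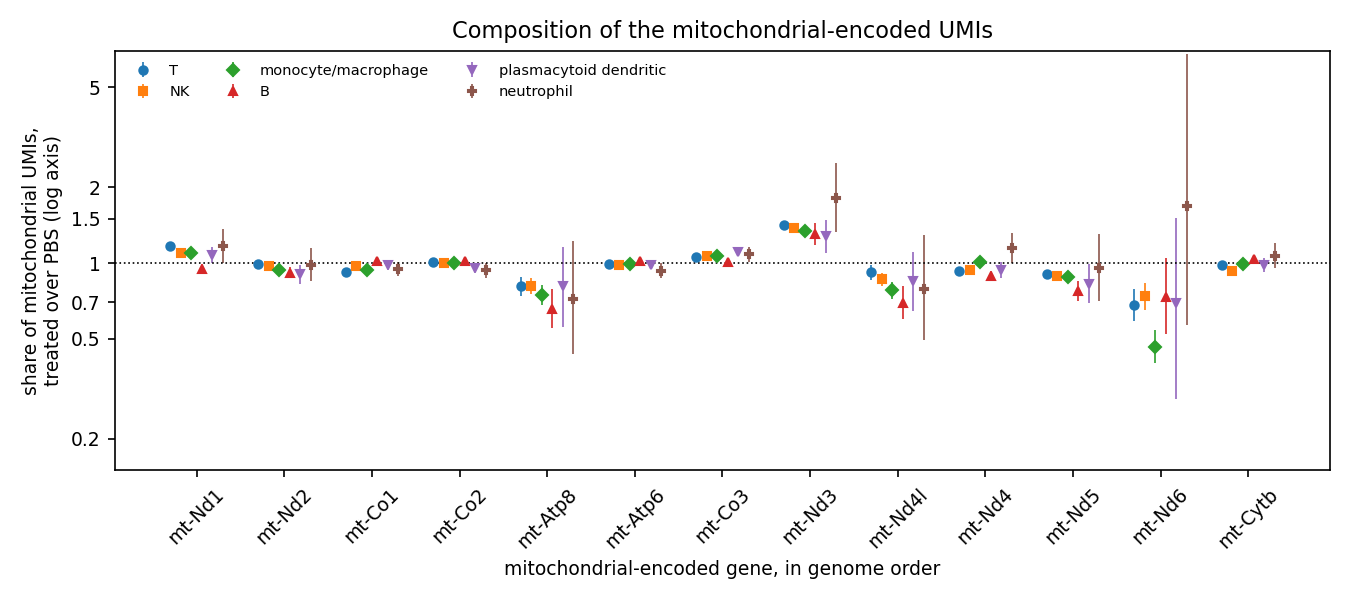
Share of each gene among the UMIs of the 13 mitochondrial-encoded subunit genes, treated over control, on a log axis, for 6 marker gates; points are ratios of 1 library to 1 library and bars 95% intervals. The points of mt-Nd3 lie between 1.28 and 1.81 and those of mt-Atp8 between 0.659 and 0.809, while mt-Co2 stays between 0.936 and 1.02.

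Of the nuclear members with at least 200 UMIs, the complex V gene Atp5o had the highest ratio in T, NK, monocyte/macrophage and B cells alike. Atp5o encodes OSCP, the stalk protein that joins the catalytic head to the membrane part. It was 176 CPM in control and 235 CPM in treated T cells, a ratio of 1.33 (1.248 to 1.42). In NK cells it was 189 and 231 CPM, a ratio of 1.22 (1.16 to 1.29), and in monocytes and macrophages 187 and 229 CPM, also 1.22 (1.14 to 1.31). In B cells it was 106 and 179 CPM, a ratio of 1.68 (1.36 to 2.10), and 1.86 without the deep control barcode. Atp5c1, the gamma subunit that turns inside the head, was 250 and 299 CPM in T cells and 249 and 273 CPM in monocytes and macrophages. Atp5o, Atp5c1 and Cox7a2l, a complex IV relative that helps form supercomplexes, were the nuclear members with an interval above 1 in all 4 gates, 3 of 66. Among the mitochondrial members mt-Nd3 was the only such gene, 1 of 12, and of 2084 genes measured in all 4 gates 2.16% met this. No member had an interval below 1 in all 4 gates, against 4.99% of those genes.

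Atp5e, the epsilon subunit, was the most abundant nuclear complex V member by UMIs in T cells (777 and 861 CPM), NK cells (938 and 944 CPM) and monocytes and macrophages (685 and 687 CPM). The nuclear complex V sum had ratios of 1.10 (1.08 to 1.11) in T, 1.04 (1.04 to 1.06) in NK and 1.03 (1.02 to 1.04) in monocyte/macrophage cells. In B cells it was 1.00 (0.966 to 1.04), and 1.13 (1.08 to 1.17) without the deep barcode. Control B cells had 257 UMIs of Atp5g1, which encodes the c subunit of the membrane ring, and 119 without that barcode. The Atp5g1 ratio in B cells went from 0.626 with it to 1.20 without it.

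Nuclear complex IV members summed higher in treated T and NK cells. Their sum was 4888 CPM in control and 5423 CPM in treated T cells, a ratio of 1.11 (1.10 to 1.12), and 5430 and 5954 CPM in NK cells, a ratio of 1.10 (1.08 to 1.11). In monocytes and macrophages it was 4909 and 5007 CPM, a ratio of 1.02 (1.01 to 1.03). Cox8a, the small membrane subunit with the most UMIs of its complex in T and NK cells, was 820 and 952 CPM in T cells and 846 and 997 CPM in NK cells. Its level in monocytes and macrophages was 749 and 736 CPM. Cox4i1, the widely used form of the regulatory subunit IV, was 696 and 782 CPM there, a ratio of 1.12 (1.08 to 1.17).

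For complex III, Uqcrh, the hinge protein that meets cytochrome c, had the most UMIs of its complex's nuclear members in the 4 gates. It was 650 and 734 CPM in T cells, 540 and 643 CPM in NK cells, 371 and 399 CPM in monocytes and macrophages and 568 and 584 CPM in B cells. The nuclear complex III sum had ratios of 1.09 (1.07 to 1.11) in both T and NK cells and 0.983 (0.959 to 1.01) in monocytes and macrophages. Its B cell ratio of 0.861 (0.810 to 0.917) was 0.989 (0.924 to 1.06) without the deep barcode. Uqcrq, a small complex III subunit, had 266 control B cell UMIs with that barcode and 111 without it, and its ratio went from 0.573 to 1.22. Uqcr10, another small subunit, was 217.5 CPM in control and 188 CPM in treated monocytes and macrophages, a ratio of 0.864 (0.807 to 0.926).

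Complex I has the most members, and its nuclear sum had ratios of 1.09 (1.07 to 1.10) in T, 1.05 (1.04 to 1.06) in NK and 1.00 (0.989 to 1.02) in monocyte/macrophage cells. Ndufa13, also known as GRIM-19, had the most UMIs among them in T cells (429 and 445 CPM) and NK cells (508 and 502 CPM). The gene listed as Ndufb1-ps, annotated as a long non-coding RNA of a bidirectional promoter and not as protein-coding, led in monocytes and macrophages, at 496 and 565 CPM. The RefSeq promoter match above paired this symbol, as a synonym, with the gene Ndufb1. In T cells the accessory subunits Ndufa3 (139 and 180 CPM, ratio 1.30, 1.20 to 1.40) and Ndufb10 (130 and 160 CPM, ratio 1.23, 1.14 to 1.33) had the highest complex I ratios. The lowest were Ndufa8 (ratio 0.982, 0.898 to 1.07) and Ndufab1 (ratio 0.982, 0.905 to 1.07), whose intervals include 1. Ndufab1 encodes the acyl carrier protein, which also serves mitochondrial fatty acid synthesis. In monocytes and macrophages the lowest were Ndufa5 (78.7 and 58.7 CPM, ratio 0.746, 0.663 to 0.839) and Ndufa12 (97.4 and 77.7 CPM, ratio 0.799, 0.720 to 0.887). Without the deep barcode the ratios were 0.785 and 0.844. In T cells Ndufa5 had a ratio of 0.997 (0.911 to 1.09) and Ndufa12 one of 1.09 (1.00 to 1.20). The core subunit Ndufv1, which binds NADH, was among the highest in monocytes and macrophages, with a ratio of 1.18 (1.01 to 1.37). In NK cells Ndufa4, a subunit first assigned to complex I and now to cytochrome oxidase, and counted by its name with complex I here, was 296 and 359 CPM, a ratio of 1.22 (1.16 to 1.27). The lowest NK ratios were those of Ndufs1 (0.914, 0.799 to 1.05), Ndufab1 (0.945, 0.885 to 1.01), Ndufa10 (0.945, 0.873 to 1.02) and Ndufb3 (0.946, 0.892 to 1.00), whose intervals all include 1.

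Of the 8 restricted isoforms 1 had a high level in an immune gate. Control UMIs of Ndufa4l2 (103 of 116) and Cox7b2 (68 of 81) lay mostly in the very deep barcodes described below. Cox6a2, known as the heart and skeletal muscle form of subunit VIa, had its highest level in plasmacytoid dendritic cells, which held 818 of its 1136 control and 311 of its 466 treated UMIs. These UMIs came from 112 control and 32 treated cells, or 956 CPM (892 to 1024) and 958 CPM (854 to 1070). The 2 intervals overlap over most of their length. UMIs of Cox6a2 were found in 82 of 112 control cells, or 73.2% (exact interval 64.0% to 81.1%), and in 27 of 32 treated cells, or 84.4% (67.2% to 94.7%). After thinning each cell to 1000 UMIs, which left out 12 control cells and 1 treated cell, the shares were 46% and 51.6%. T cells were taken for comparison. There 14 of 1439 control and 5 of 1195 treated cells had a UMI, 0.973% and 0.418%, at median depths of 4924 and 6733 UMIs. After thinning 4 of 1370 and 0 of 1188 T cells did. The source of these UMIs, free RNA among others, was not tested. The plasmacytoid gate had medians of 8979 and 10150.5 UMIs.

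Over the T, NK, monocyte/macrophage, B and neutrophil gates together Cox6a2 stood at 2.12 CPM in the PBS library and 0.663 CPM after treatment. The plasmacytoid gate was 451-fold (348 to 595) and 1444-fold (973 to 2226) above that. Its partner Cox6a1 ranged from 178.5 to 227 CPM in control T, NK, monocyte/macrophage, B and plasmacytoid dendritic cells, and from 151 to 241 CPM in the same treated gates. In plasmacytoid dendritic cells Cox6a2 UMIs outnumbered Cox6a1 UMIs by 4.70 to 1 in the control and 4.26 to 1 in the treated library, as counted and without a correction for capture. Of 8 skeletal muscle markers, 5 had no UMI in the control and 6 none in the treated plasmacytoid gate, the muscle actin gene Acta1 and the muscle creatine kinase gene Ckm among them, and the list summed to 24.5 and 40.0 CPM. Control B cells had 20 Cox6a2 UMIs, and 3 without the deep barcode. The control conventional dendritic gate, left out of that sum, had 39, or 80.8 CPM, in 2 of its 30 barcodes, and 0 without its deep barcodes. Over all barcodes of more than 50000 UMIs Cox6a2 stood at 43.6 CPM (37.6 to 50.4) in the PBS library and 14.5 CPM (8.96 to 22.1) after treatment.

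**Figure D5:**
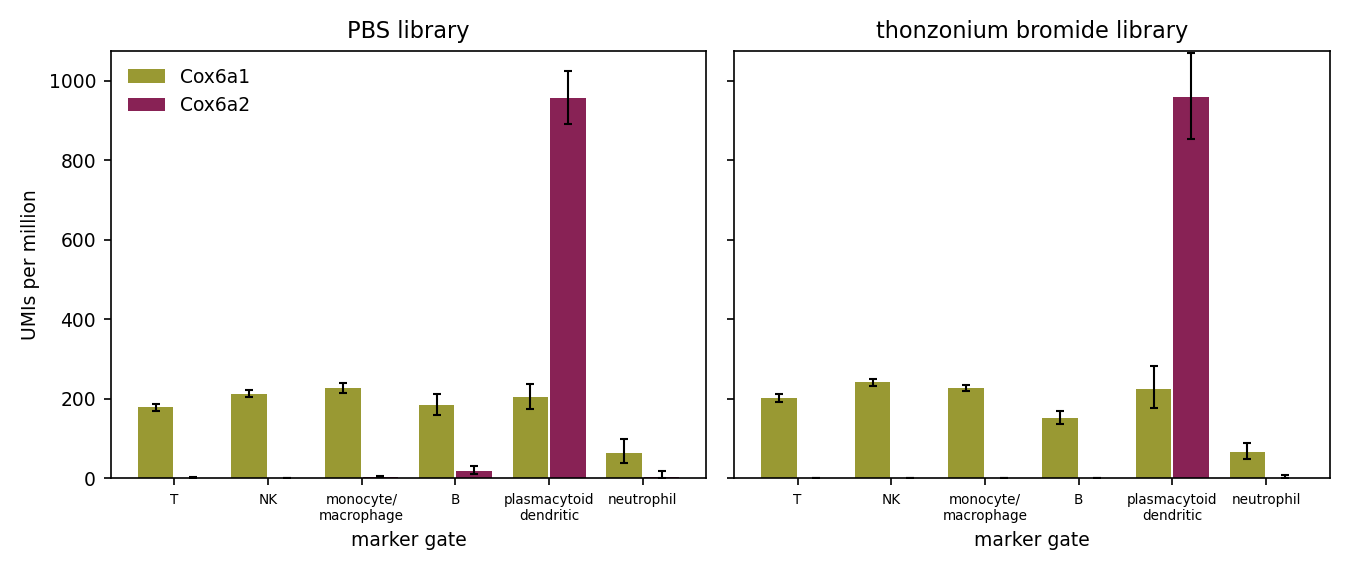
Level of Cox6a1 and Cox6a2 in CPM (y axis) in 6 marker gates (x axis), with the PBS library on the left and the thonzonium bromide library on the right; error bars are 95% Poisson intervals. Cox6a2 stands at 956 and 958 CPM in plasmacytoid dendritic cells and below 20 CPM in the other gates drawn, while Cox6a1 is present in every gate.

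The other 7 restricted isoforms were rare. Over all kept barcodes Cox4i2, the lung form of subunit IV, had 5 control and 24 treated UMIs, and Cox8b had 0 and 14. Cox8c had 1 and 0. Cox7a1, the muscle form of subunit VIIa, had 126 and 125, of which 65 in the treated library lay in monocytes and macrophages. Cox6b2, known as the testis form, had 219 and 186 UMIs, with 99 of the control ones in erythroid barcodes. The remaining pair, Cox7b2 (81 and 53 UMIs) and Ndufa4l2 (116 and 34 UMIs), a gene known to be induced by low oxygen, had most of their UMIs outside the 7 immune gates.

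Barcodes of more than 50000 UMIs carried their own profile of these genes. There were 41 in the PBS library and 14 after treatment among the kept barcodes, most of them in no gate or in the gate of tumour and stromal markers. Together they had 39.2 CPM of Ptprc in the PBS library and 112 CPM after treatment, against 1556 and 1633 CPM in the other barcodes. Rhox5, a homeobox gene used here as a tumour marker, was at 617 and 622 CPM in them, against 15.8 and 7.89 CPM. Their nuclear subunit sum was 26039 CPM in the PBS library and 27460 CPM after treatment, above the 16512 and 18514 CPM of the rest. The rest included 306 control and 29 treated erythroid barcodes, whose UMIs were 93.0% and 95.1% haemoglobin. The part of these erythroid barcodes in the comparisons was not tested. Atp5g1 was 855 CPM in the deep control barcodes and 224 CPM in the others, a ratio of 3.82 (3.67 to 3.97), and the treated library gave 3.12 (2.93 to 3.31). For Uqcrq the ratios were 3.20 (3.08 to 3.32) and 2.77 (2.60 to 2.93). Ndufa3 went the other way in both libraries, at 85.6 CPM against 142 under PBS and 107 against 173 under treatment. Of the rare isoforms, 103 of the 116 control UMIs of Ndufa4l2 and 68 of the 81 of Cox7b2 came from these barcodes.

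Related genes were counted by lists, to be read against the shares of all genes past the fold given above (for example 10.6% downward in T and 9.47% in monocyte/macrophage cells). Complex II, which is encoded in the nucleus alone and feeds electrons from succinate, had 4 of 4 genes measured in T, NK and monocyte/macrophage cells and none past the fold in them. Its summed ratios were 1.08 (1.02 to 1.14), 1.03 (0.981 to 1.08) and 1.07 (1.01 to 1.13). Of 18 complex I assembly factors 13, 15 and 10 reached 200 UMIs in these 3 gates. In T cells Ecsit, which also acts in innate immune signalling, was past the fold upward (17.2 and 25.5 CPM), and in monocytes and macrophages Ndufaf2 was past it downward (13.4 and 8.91 CPM). Without the deep control barcode Ndufaf2 fell short of 200 UMIs, and Ndufaf7 was past the fold upward (18.1 and 23.0 CPM). Assembly factors of complexes III, IV and V numbered 30, of which 23, 25 and 19 were measured. Atpaf2 in T cells (15.9 and 12.3 CPM) and Ttc19 and Cox18 in monocytes and macrophages (22.8 and 15.3, 16.6 and 12.5 CPM) were past the fold downward. Without the deep barcodes the interval of Atpaf2 included 1 (ratio 0.782, 0.607 to 1.01), Ttc19 and Cox18 were still past the fold, and Surf1 was past it upward in monocytes and macrophages (20.4 and 25.9 CPM).

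Of 10 genes for cytochrome c, carriers and uncoupling, 9 were measured in these gates. The adenine nucleotide carrier Slc25a4 was 85.7 and 57.7 CPM in monocytes and macrophages, past the fold downward, but 61.5 and 57.7 CPM without 1 deep control barcode (ratio 0.939, 0.825 to 1.07). Its sister carrier Slc25a5 was 365 and 435 CPM there. The uncoupling protein gene Ucp2 was 557.5 and 654 CPM in the same cells, a ratio of 1.17 (1.13 to 1.22). Genes that copy, transcribe and translate the mitochondrial genome had 26 of 27 listed symbols in the files. In T cells 1 of the 18 measured was past the fold, downward, against 10.6% of all genes. It was the mitochondrial DNA polymerase gene Polg, at 29.5 and 21.4 CPM. In monocytes and macrophages 2 of 16 were past it upward (against 6.8% of all genes), Polg (11.5 and 16.9 CPM) and the elongation factor gene Tufm (16.2 and 22.2 CPM). In the same gate 3 were past it downward (against 9.47%), Mtif2, Ssbp1 and Tfam, the packaging and transcription factor of mitochondrial DNA (28.4 and 21.9 CPM). Without the deep barcode Ssbp1 was no longer past it (ratio 0.812), and the other 4 were. None of 20 measured in NK cells was past the fold. Of 13 citrate cycle genes Fh1, the fumarase gene, was the only one past it in these 3 gates, downward in monocytes and macrophages (41.1 and 32.8 CPM), and its ratio of 0.806 without the deep barcode was not. In B cells 8 genes were past the fold downward, against 24.3% of all genes. Of 9 measured for cytochrome c, carriers and uncoupling 4 were, and of 5 citrate cycle genes 2. Of 8 assembly factors of complexes III, IV and V 2 were. The other lists had only 1 or 2 genes measured in B cells and none past the fold. Without the deep control barcode 1 of 5 citrate cycle genes was past it downward (against 22.0%). Upward was 1 of 8 genes of the cytochrome c and carrier list (against 5.43%).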

How the data were processed

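Each library was deposited as a matrix of UMI counts per gene and barcode, written by Cell Ranger 6.1.2 per the file headers. Seurat 3.0, R 3.5.3 and mm10 appear in the submitters' processing notes, and per the labels' protocols a 3' kit was used. The deposited counts are whole numbers, not normalized, and cover 7803 control and 6724 treated barcodes with 46348444 and 52973138 UMIs. How many mice entered a library is not given in the sources used here.

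A barcode was kept with 200 genes or more and no more than 20% of its UMIs mitochondrial, a limit that acts on member genes. Barcodes were gated with 12 lists of 8 markers (at least 3 markers, a lead of 2). No doublet caller was run, and none were removed as doublets beyond what the lead excludes. Counts were summed per gate and library and divided by the gate's UMIs. Intervals are 95% exact Poisson for levels, conditional binomial for ratios and Clopper-Pearson for shares. Cells were thinned to 1000 UMIs with a fixed seed. Python 3.11.15, numpy 2.4.6, scipy 1.17.1, pandas 2.3.3 and matplotlib 3.10.9 were used. With 1 library per group there is no test and no p-value.

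Named genes were drawn from all mitochondrial members, the most abundant nuclear member per complex and gate, the 4 highest and 4 lowest nuclear ratios per gate, the restricted isoforms with their partners and, of each related list, the most abundant and the 2 highest and 2 lowest ratios. Genes in counts of 5 or fewer, those with an interval above 1 in every gate, the mitochondrial genes singled out by their share and the genes of the very deep barcodes were named after their values were seen. Some genes that the rule allows are not reported here. The members and lists were chosen with earlier results of these data known. Reads that a gene shares with processed pseudogenes or nuclear copies of mitochondrial DNA cannot be told apart here. On simulated counts for the T gate (7572 genes), 96% of genes changed by 2-fold, 92% of those changed by 1.5-fold and 1.44% of unchanged genes passed the fold rule of the report. For the B gate the shares were 85%, 86% and 3.25% in that order. The simulated counts were Poisson draws from the pooled libraries, without variation between cells, mice or libraries. They therefore hold counting error only and give no rate of false calls between these libraries. In all 8 alternatives were planned, and 3 were added after seeing the data.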

Additional observations from a re-analysis of the deposited data

Results flagged for a closer look

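The summed mitochondrial-encoded CPM went opposite ways in 2 gates, with a treated over control ratio of 1.27 in B cells and 0.901 in NK cells. The nuclear-encoded sum did so in T cells, at 1.10, and neutrophils, at 0.850. With 1 library per group neither difference between gates was tested. The neutrophil ratio stands beside a ribosomal protein ratio of 0.556 in the same gate, and rests on 1771 control and 3203 treated UMIs. Barcodes in no gate, which no comparison by cell type used, had a nuclear-encoded ratio of 1.05 and a mitochondrial-encoded ratio of 0.885, with 2194 control and 1075 treated barcodes at median depths of 1168 and 2986 UMIs.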

How the results depend on the processing

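Each gate's sums were recomputed under 8 planned and 3 added alternatives, and ratios that left the interval of the main value are given. With at most 10% mitochondrial UMIs the mitochondrial ratio was 1.04 in T, 1.00 in NK (1.001, on the other side of 1), 1.11 in monocyte/macrophage, 1.24 in B and 0.737 in conventional dendritic cells, and the nuclear ratio 1.04 in NK and 1.00 (1.005) in monocyte/macrophage cells. With no mitochondrial filter the mitochondrial ratio was 0.942 in T, 0.876 in NK, 0.991 in monocyte/macrophage, 1.29 in B and 0.852 in conventional dendritic cells. Gates of at least 4 markers and a lead of 3 gave mitochondrial ratios of 0.925 in NK and 2.09 in conventional dendritic cells, and nuclear ratios of 1.06 in NK, 1.07 in B and 1.22 in conventional dendritic cells. Gates of 2 markers and a lead of 2 gave mitochondrial ratios of 1.01 (1.007) in T and 1.03 in monocyte/macrophage cells. Thinning to 1000 UMIs gave mitochondrial ratios of 0.992 in T, 0.795 in NK, 0.941 in monocyte/macrophage and 1.64 in conventional dendritic cells, and nuclear ratios of 1.13 in T, 1.12 (1.125) in NK, 1.03 in monocyte/macrophage, 1.07 in B and 1.14 in conventional dendritic cells. Weighting each cell equally gave mitochondrial ratios of 0.968 in T, 0.771 in NK, 0.965 in monocyte/macrophage, 1.30 in B and 1.69 in conventional dendritic cells, and nuclear ratios of 1.14 in T, 1.13 in NK, 1.06 in B and 1.12 in conventional dendritic cells. Over UMIs outside mitochondrial and haemoglobin genes the mitochondrial ratio was 1.01 (1.006) in T, 0.894 in NK and 1.30 in B cells, and the nuclear ratio 1.09 in T, 1.06 in NK and 0.999 in B cells. Without the 5% deepest cells the mitochondrial ratio was 1.02 in T, 0.877 in NK, 1.02 in monocyte/macrophage, 1.33 in B and 2.14 in conventional dendritic cells, and the nuclear ratio 1.11 in T, 1.05 in B and 1.07 in conventional dendritic cells. Of those added, gates of 2 markers and a lead of 1 gave mitochondrial ratios of 0.997 in T, 0.892 in NK, 1.02 in monocyte/macrophage, 1.251 in B and 0.898 in conventional dendritic cells, and nuclear ratios of 1.07 in NK, 1.03 in monocyte/macrophage, 1.02 in B and 0.903 in conventional dendritic cells. Without cycling cells the mitochondrial ratio was 1.03 in T and 2.16 in conventional dendritic cells, and the nuclear ratio 1.11 in T, 1.05 in B and 1.12 in conventional dendritic cells. Without barcodes over 50000 UMIs the mitochondrial ratio was 1.03 in T and 2.16 in conventional dendritic cells, and the nuclear ratio 1.02 in monocyte/macrophage, 1.09 in B and 1.12 in conventional dendritic cells. The nuclear ratios of T (1.09 to 1.14) and NK cells (1.04 to 1.13) and the mitochondrial ratio of B cells (1.24 to 1.33) stayed above 1 in all 11, and the nuclear ratio of monocyte/macrophage cells did too (1.00 to 1.03).

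Members past the fold numbered 3 to 11 upward in T cells and 0 to 7 in NK cells, with the most under thinning and, in NK cells, equally under equal weights. Of all genes, 6.03% were then past it upward in T cells (3.15% as reported) and 6.61% and 6.00% in NK cells (3.95%). Downward they numbered 2 to 11 in NK and 0 to 10 in B cells, with none in B cells under 5 alternatives. Of all genes, 7.29% were past it downward in NK cells under thinning, which gave the 11 (5.18% as reported). In B cells 24.7% were with at most 10% mitochondrial UMIs, which gave the 10 (24.3%). Under the 5 alternatives with none, 18.95% to 24.4% of all genes were. Under equal weights monocyte/macrophage cells had 3 upward (against 12.3% of all genes) and B cells 14 (against 8.21%). Thinning left monocyte/macrophage cells with 2 downward (against 6.44%). The causes were not tested, except that leaving out deep barcodes by construction removes the control B barcode described above. No paired analysis was possible because each group has 1 library. Depth limits the B, plasmacytoid dendritic and neutrophil gates, where 66, 47 and 4 of 82 nuclear members reached 200 UMIs.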
